A study of Mus musculus with 30 samples.

Results

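The genes described here are the 100 whose RNA lay furthest below control at every time point after SRCAP was degraded in mouse embryonic stem (ES) cells. They were selected on the exon counts of the time course, from 10453 ranked genes out of 55401 in the count table. For each gene, exon counts were scaled to CPM, which brings every library to the same total, genes with a mean control level of at least 5 CPM were kept, and the log2 ratio of (mean CPM + 0.5) after IAA over (mean CPM + 0.5) in control was taken at 2, 4, 6 and 8 h. Genes whose symbols begin with Zfp, Ift, Bbs, Cep or Ttc were left out, and the 100 genes with the lowest value of their highest ratio form the list. Without that exclusion 55 of the 382 dropped genes would have reached the same limit, 51 of them Zfp genes.

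SRCAP is the ATPase of a chromatin remodeller that exchanges histone H2A for the variant H2A.Z in nucleosomes, which lie mostly at promoters and enhancers. In an auxin degron line, the plant hormone indole-3-acetic acid (IAA) lets the plant receptor OsTir1 mark an AID-tagged protein for the proteasome. The tagged protein is then lost with no further change to its gene. Nuclear RNA holds more unspliced transcripts than whole-cell RNA and so follows transcription closely.

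The SYAT line is CGR8 mouse ES cells with a YPet-AID tag on both Srcap alleles and with OsTir1. It was kept in auxinole, which blocks the receptor, as control, or given 500 µM IAA, with nuclear RNA taken after 2, 4, 6 and 8 h. Parental CGR8 cells, which carry no degron, were given no IAA (NT) or given 500 µM IAA for 4 h. SYAT cells with a fluorescent cell-cycle reporter were sorted in early G1 (EG1) or late G1 (LG1) after 1 h of 500 µM IAA or in control. In addition, SYAT cells carried a lentiviral, doxycycline-inducible SRCAP-mCherry that was either wild type (wtSRCAP) or mutated in the ATPase domain so as to be catalytically dead (cdSRCAP). Each of these lines is 1 clone, was given 1 µg/mL doxycycline for 24 h in all its groups and was sorted for mCherry. In these lines 4 h of 500 µM IAA was compared with NT, which by the study's methods was left in auxinole. All cells were in serum and LIF. Each of the 15 groups held 2 libraries, prepared as biological duplicates. The p-values set differences against the spread between such duplicates. That spread was estimated over all 8 libraries in the sorted cells and over all 8 in the wtSRCAP and cdSRCAP lines.

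Exon counts per library came to 17540823 to 22873893 in the time course, 45617992 to 60214521 in CGR8, 19740778 to 26672402 in the sorted cells and 12236493 to 26369773 in the wtSRCAP and cdSRCAP lines. All 10 ES cell markers of the list used were at 1 CPM or more in every group. Markers of other lineages were low, and some of them moved with IAA in summed TMM-scaled CPM. In the time course the 5 mesoderm markers were at 9.95 to 13.9 in control and 14.9 to 24.4 after IAA, and the 4 neuroectoderm markers at 6.98 to 10.9 and 11.6 to 19.1. Neuroectoderm markers were also higher after IAA in CGR8 without the degron (22.8 to 24.5 and then 31.1 to 32.1), in wtSRCAP (8.54 to 11.1 and then 15.3 to 17.3) and in cdSRCAP (11.5 to 14.7 and then 19.7 to 25.8). Only 1 or 2 of the 4 neuroectoderm markers were at 1 CPM or more in each of these groups. In wtSRCAP and cdSRCAP, in that order, mesoderm markers went from 5.0 to 7.12 up to 8.53 to 14.0 and from 7.68 to 7.78 up to 12 to 13.1, and the 5 fibroblast markers from 5.12 to 5.31 up to 12.1 and from 6.48 to 7.36 up to 8.39 to 8.68. The groups did not overlap in any of these, and Neurog2 and Lum were at 0 in every library of CGR8, wtSRCAP and cdSRCAP. Other sums overlapped between control and IAA. They include primitive endoderm (6 markers) in every table, with 12.9 to 16.1 and 15.7 to 18.8 in the time course. Fibroblast markers overlapped in the time course (21.6 to 26.6 and 22.4 to 38.7) and mesoderm markers in CGR8 (5.1 to 7.65 and 6.7 to 8.88). Summed ES cell markers went from 2960 to 3570 up to 3890 to 4120 in wtSRCAP and overlapped in the time course and cdSRCAP. The part of these markers in the members' values was not tested. Srcap RNA itself, which the degron does not target, lay at 39.9 and 45.8 TMM-scaled CPM in SYAT control and between 44.9 and 60.2 after IAA. In the wtSRCAP and cdSRCAP lines it lay between 48.9 and 74.5, with the transgene, which was cloned from CGR8 cells, not told apart from the endogenous RNA.

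Of the 100 genes, 99 are protein coding and 1, 4632415L05Rik, is a long intergenic non-coding RNA. They lie on 19 chromosomes, with at most 13 on 1 chromosome. Only 2 members, the neighbouring zinc finger genes 2810021J22Rik and Gm12258 on chromosome 11, lay within 10 kb of another member. Control levels were low, with a median of 12.9 CPM over the members against 33.7 CPM over all ranked genes. Repeated C2H2 zinc fingers are a DNA-binding module of many transcription factors. By a search of translated GENCODE transcripts, 12 of 100 members (12%) hold 3 or more such fingers against 168 of 10450 ranked genes (1.61%), although Zfp symbols had been removed.

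Promoters are shown for the 4 members that head the list and have an entry in the RefSeq promoter table (build GRCm38.p6), and for the next 3 by rank that hold the motif ACTACANNT, which the factors ZNF143 and THAP11 are known to bind. Each runs from 250 bases before to 50 bases after the start of the gene, 5′ to 3′ on the strand of the gene, and capitals mark the letters of any of the 10 motifs searched, on either strand. The windows are chr12:98627892-98628191 (+) for Spata7, chr4:128610049-128610348 (-) for Zscan20, chr4:129440769-129441068 (-) for Zbtb8b, chr11:51220321-51220620 (+) for Gm12569, chr8:72443630-72443929 (+) for 1700030K09Rik, chr9:108290193-108290492 (+) for Nicn1 and chr6:4086881-4087180 (-) for Bet1.
Spata7: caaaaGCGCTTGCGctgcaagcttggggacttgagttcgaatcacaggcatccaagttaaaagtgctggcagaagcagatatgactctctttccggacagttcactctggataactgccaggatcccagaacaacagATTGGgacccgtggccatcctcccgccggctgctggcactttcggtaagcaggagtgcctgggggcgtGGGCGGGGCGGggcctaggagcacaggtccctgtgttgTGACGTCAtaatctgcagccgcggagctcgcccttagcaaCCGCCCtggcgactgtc
Zscan20: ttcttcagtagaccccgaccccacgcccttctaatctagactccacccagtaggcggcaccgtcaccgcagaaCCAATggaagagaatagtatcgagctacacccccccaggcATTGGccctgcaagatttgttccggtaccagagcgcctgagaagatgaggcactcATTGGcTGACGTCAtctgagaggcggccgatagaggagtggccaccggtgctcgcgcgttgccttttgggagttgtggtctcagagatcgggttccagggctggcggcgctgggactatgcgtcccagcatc
Zbtb8b: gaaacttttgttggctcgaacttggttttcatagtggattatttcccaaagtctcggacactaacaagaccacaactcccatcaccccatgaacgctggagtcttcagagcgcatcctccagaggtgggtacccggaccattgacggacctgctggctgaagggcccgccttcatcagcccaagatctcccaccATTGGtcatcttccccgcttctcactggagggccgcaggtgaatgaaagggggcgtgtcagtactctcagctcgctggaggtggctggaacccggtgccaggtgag
Gm12569: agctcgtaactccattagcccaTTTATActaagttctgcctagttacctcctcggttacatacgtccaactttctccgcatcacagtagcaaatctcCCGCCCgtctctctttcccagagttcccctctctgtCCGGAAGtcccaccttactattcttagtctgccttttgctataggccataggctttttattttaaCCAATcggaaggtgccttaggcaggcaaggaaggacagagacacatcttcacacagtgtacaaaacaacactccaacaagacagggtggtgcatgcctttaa
1700030K09Rik: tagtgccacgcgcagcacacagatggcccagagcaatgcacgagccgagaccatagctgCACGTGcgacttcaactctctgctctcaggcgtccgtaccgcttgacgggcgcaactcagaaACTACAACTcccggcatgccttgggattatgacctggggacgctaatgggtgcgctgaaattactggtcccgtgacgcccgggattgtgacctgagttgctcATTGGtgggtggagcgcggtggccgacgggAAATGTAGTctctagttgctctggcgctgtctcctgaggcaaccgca
Nicn1: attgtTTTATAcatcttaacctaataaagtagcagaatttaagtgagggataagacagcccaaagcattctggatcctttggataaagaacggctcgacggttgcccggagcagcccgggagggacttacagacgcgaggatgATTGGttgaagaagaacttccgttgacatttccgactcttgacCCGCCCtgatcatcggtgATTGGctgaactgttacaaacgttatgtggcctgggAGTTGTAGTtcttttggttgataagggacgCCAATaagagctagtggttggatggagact
Bet1: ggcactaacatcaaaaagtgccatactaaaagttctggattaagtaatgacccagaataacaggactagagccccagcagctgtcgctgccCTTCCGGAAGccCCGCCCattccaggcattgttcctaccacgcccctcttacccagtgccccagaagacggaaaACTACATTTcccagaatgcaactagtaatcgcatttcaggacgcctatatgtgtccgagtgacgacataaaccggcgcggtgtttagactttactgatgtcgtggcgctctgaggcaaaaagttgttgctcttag

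A window was found for 83 of the 100 members and for 7827 of the ranked genes. Where the promoter table held several starts of a gene, members took the start nearest to the GENCODE start. Ranked genes took the one lowest in genomic coordinate, so the shares below rest on windows chosen in 2 ways. Of the member windows, 71 lay within 100 bases of the GENCODE start. The furthest were those of Ostm1 (95094 bp), Usp30 (34872 bp), Srek1ip1 (24686 bp) and Cyp1a1 (9685 bp), and they count in the shares. The palindrome TGACGTCA, the cyclic AMP response element bound by CREB and ATF factors, was in 9 of the 83 windows (10.8%) against 3.3% of the windows of ranked genes. Its 9 holders were Spata7, Zscan20, Atxn1l, Ranbp6, Txnl4b, Phospho2, Paqr3, Ddx28 and Hps4. CCAAT, the box bound by NF-Y, was in 48.2% against 38.9%, and the ETS motif CCGGAAG in 27.7% against 20.4%. GGGCGG, bound by SP and KLF factors, was less frequent, in 53.0% against 69.0%, and the median number of CpG dinucleotides was 17 against 22. ACTACANNT was in 8.43% against 5.9%, and the NRF1 motif GCGCNTGCG in 12% against 15.7%. TCTCGCGA was in none of the member windows and in 2.75% of ranked ones, AAGATGGC (YY1) was in 3.61% against 5.37%, the E-box CACGTG in 10.8% against 11.2% and TATAAA in 6.02% against 5.97%. For the E-box and TATAAA the shares of members and ranked genes were close. No motif contains another, neighbouring matches can share letters, all were searched on both strands, and the shares are descriptions without a test.

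In the time course, whose values chose the genes and which therefore carries no test, the median log2 ratio of the 100 genes was -0.67 at 2 h, -0.86 at 4 h, -1.01 at 6 h and -0.87 at 8 h. Over all ranked genes it was -0.03, -0.03, -0.16 and -0.03. In such bulk libraries a loss from every cell and a loss from some of the cells cannot be told apart. The lower value at 6 h moved with library scaling: with TMM library sizes (trimmed mean of M values, which sets the bulk of genes level) the members' medians were -0.65, -0.83, -0.87 and -0.86, and those of ranked genes were within 0.01 of 0, so that 4, 6 and 8 h lay close together. The second library at 6 h had the lowest TMM factor, 0.8543, and a members' median of -1.17 against -0.96 in the first.

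Below a log2 ratio of -1 lay 8 members at 2 h, 26 at 4 h, 52 at 6 h and 27 at 8 h. The ratio was lower at 4 h than at 2 h in 80 of 100 members, lower at 6 h than at 4 h in 74, and higher at 8 h than at 6 h in 75. All 8 IAA libraries were below both control libraries in 96 members, where the same was true of 16.2% of ranked genes, and the rule itself used these values. The exceptions were Gm5141, Gm14443, Ttbk1 and Wdr31.

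**Figure D1:**
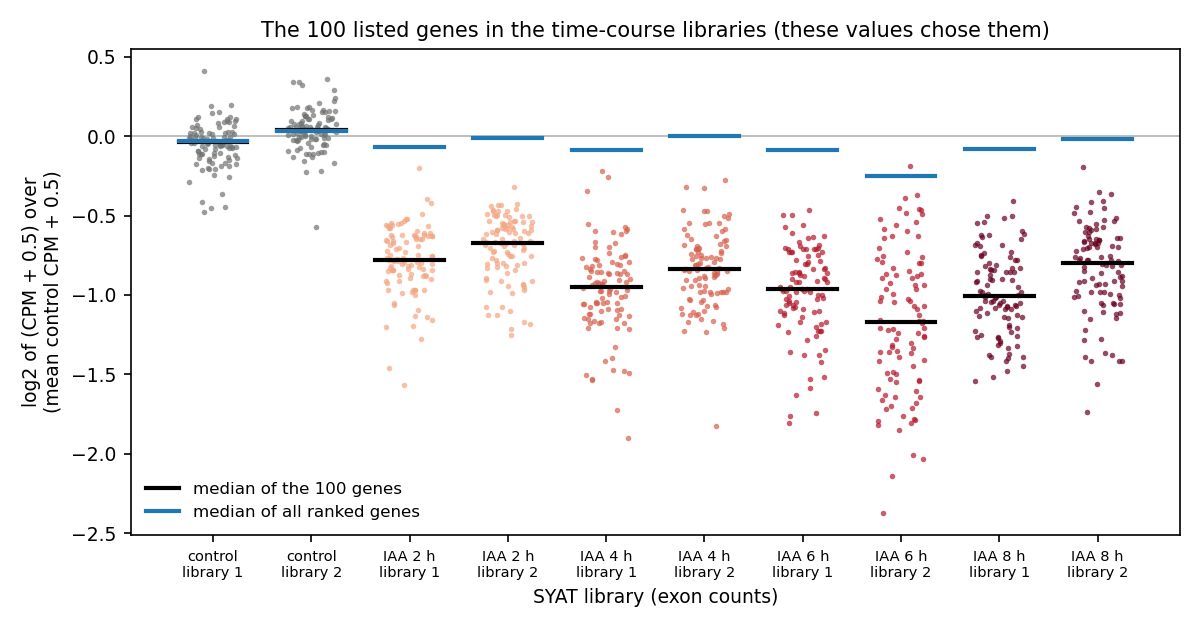
Log2 ratio of (CPM + 0.5) in each SYAT library to (mean control CPM + 0.5), for the 100 genes (points) in 2 control and 8 IAA libraries, with the median of the 100 genes (black) and of all ranked genes (blue). The members' median lies between -0.67 and -1.17 in the IAA libraries, and the blue line is lowest, at -0.25, in the second 6 h library.

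Spata7, a protein of the photoreceptor connecting cilium, heads the list (chr12:98628157-98669815, mm10). Its exon level was 6.33 and 8.83 CPM in control, 3.02 and 3.2 at 2 h, 1.66 and 3.13 at 4 h, 1.88 and 1.47 at 6 h, and 2.27 and 3.51 at 8 h. Every IAA library was lower than both controls. Lca5, which encodes lebercilin of the same ciliary compartment, lay at 7.76 and 8.74 CPM in control, 4.26 and 4.53 at 2 h, 3.38 and 4.51 at 4 h, 3.93 and 2.62 at 6 h, and 3.68 and 4.57 at 8 h. Both genes overlap other annotated genes, so that reads of these may enter their counts, since the strand setting of the counting is not given in the sources used here.

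Zinc finger genes made up 6 of the first 12 members. Zscan20, a SCAN-domain zinc finger gene (chr4:128583539-128610098), lay at 23.3 and 27.3 CPM in control, 8.2 and 11.5 at 2 h, 8.68 and 11.7 at 4 h, 11.5 and 12.3 at 6 h, and 10.2 and 13.0 at 8 h, and was thus lowest at 2 h. Zbtb49, of the BTB zinc finger family, had the same order, with 11.8 and 12.8 CPM in control, 5.23 and 5.02 at 2 h, 5.15 and 7.33 at 4 h, 5.82 and 7.76 at 6 h, and 5.52 and 7.59 at 8 h. Gm12258 had 4.34 and 7.83 CPM in control, 1.89 and 2.62 at 2 h, 2.34 and 3.53 at 4 h, 3.53 and 2.94 at 6 h, and 2.64 and 3.33 at 8 h. The 3 genes share an early minimum, whereas 63 of the 100 members had their lowest ratio at 6 h and 7 had it at 2 h. Zik1 had a later minimum, with 22.8 and 22.7 CPM in control, 13.1 and 11.9 at 2 h, 9.78 and 9.42 at 4 h, 7.01 and 4.77 at 6 h, and 9.16 and 8.44 at 8 h. Zbtb8b was at 6.74 and 8.61 CPM in control, 3.67 and 2.93 at 2 h, 2.44 and 3.13 at 4 h, 1.94 and 2.78 at 6 h, and 3.21 and 4.04 at 8 h. In both, the 6 h libraries were the lowest on average. 2810021J22Rik was at 10.8 and 13.4 CPM in control, 4.69 and 5.86 at 2 h, 3.85 and 6.21 at 4 h, 5.53 and 3.67 at 6 h, and 5.24 and 7.28 at 8 h, so that the 4 times lay close together.

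Pramef8, a PRAME family gene, had 21.5 and 18.6 CPM in control, 10.0 and 10.2 at 2 h, 10.3 and 9.87 at 4 h, 7.58 and 5.77 at 6 h, and 9.77 and 9.01 at 8 h. Klhl28, a BTB-kelch protein of the kind that brings substrates to cullin ligases, had 15.1 and 18.5 CPM in control, 7.39 and 9.73 at 2 h, 7.85 and 9.6 at 4 h, 7.7 and 5.98 at 6 h, and 8.26 and 9.37 at 8 h. Mavs, the mitochondrial adaptor of cytosolic RNA sensing, had 21.9 and 21.2 CPM in control, 11.5 and 12 at 2 h, 9.88 and 11.7 at 4 h, 10.8 and 9.59 at 6 h, and 9.49 and 13.5 at 8 h. In all 3 genes the 2 h libraries were already below both controls. Gm12569, a predicted protein-coding gene, had 3.88 and 7.34 CPM in control, 2.27 and 3.29 at 2 h, 1.35 and 2.9 at 4 h, 1.25 and 1.26 at 6 h, and 1.98 and 3.24 at 8 h. In CPM its 2 control libraries lay further apart than any pair of its IAA libraries, whereas as a ratio the 2 libraries at 4 h lay further apart. Pramef8, Gm12569 and the clustered zinc finger genes belong to families with close copies, so that their counts are uncertain where reads fit several copies.

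**Figure D2:**
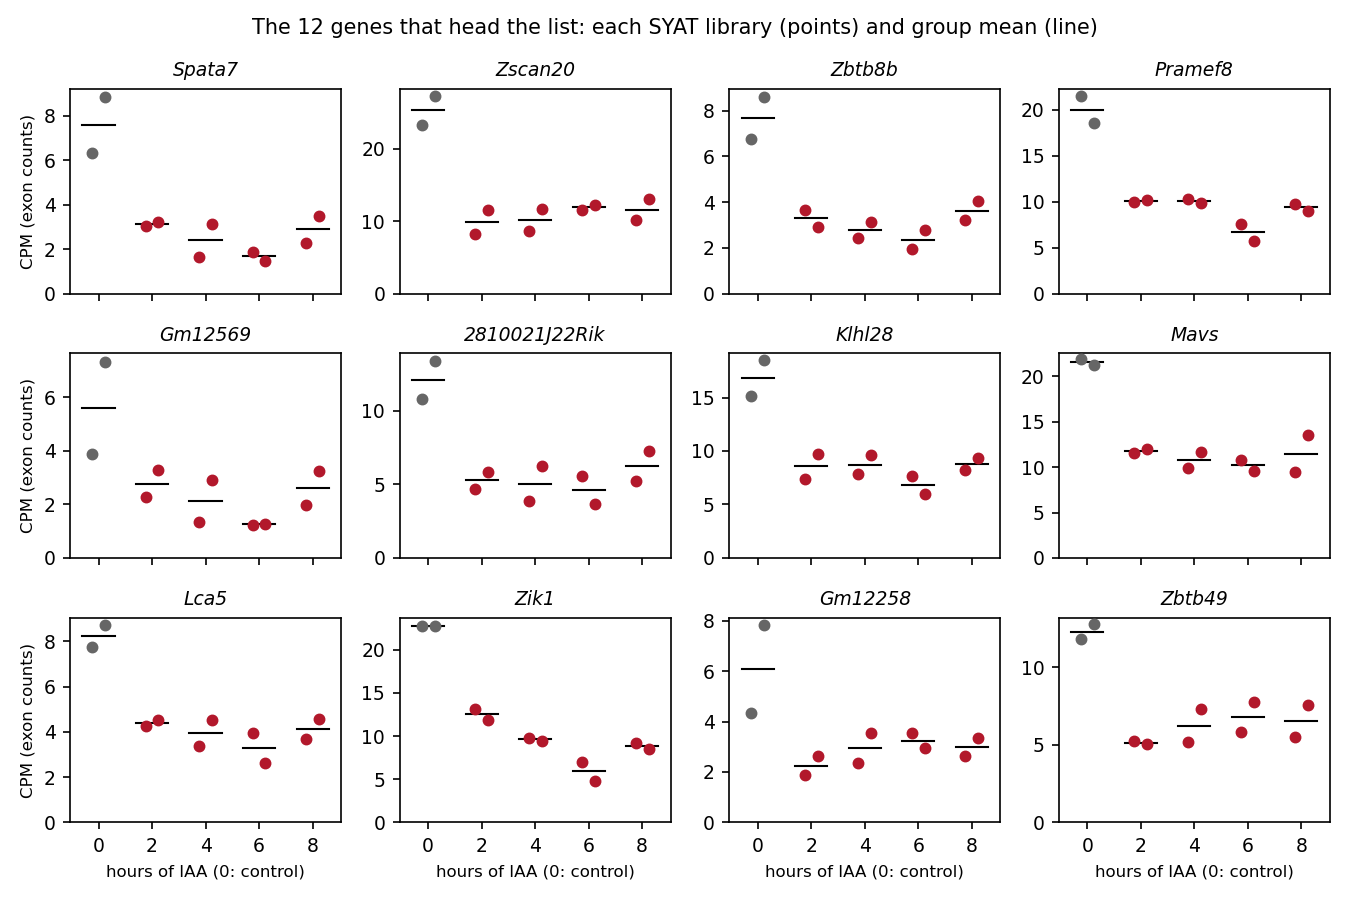
CPM of exon counts in each SYAT library for the 12 genes that head the list, with control at 0 and 2, 4, 6 and 8 h of IAA on the horizontal axis, points for the 2 libraries of a group and a line for their mean. Every red point lies below both grey points of the same gene, as for Zik1 with 22.8 and 22.7 CPM in control and at most 13.1 CPM after IAA.

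At the end of the list the difference between neighbours was small. Msantd4 (rank 99) had a highest log2 ratio of -0.58 and Insig2 (rank 100), an endoplasmic reticulum protein of sterol sensing, one of -0.579. Just outside, Rnft2 had -0.578 and Entpd7 had -0.577.

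Intron counts of the same libraries, which belong to the contrast that chose the genes, lay below control as well. For the 78 members with a mean control level of at least 5 CPM in the intron column, the median log2 ratio was -0.76 at 2 h, -0.91 at 4 h, -1.03 at 6 h and -0.93 at 8 h, and it was below 0 in all 78 at each time. In this table, however, 46.9 to 49.8% of single-exon genes with exon counts also had intron counts, which introns alone cannot give. The intron columns of CGR8, LG1, wtSRCAP and cdSRCAP had such counts in under 0.1% of these genes.

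In CGR8 cells without the degron, the 100 genes lay on both sides of control after 4 h of IAA. The median log2 fold change was -0.01 over the members and -0.03 over ranked genes, 51 members lay below 0, and the lowest and highest values were -1.73 and 1.06. No member passed an absolute log2 fold change of 0.5 with an adjusted p under 0.05 (edgeR quasi-likelihood test), where 0.00988% of the 20250 genes tested were called lower. At an unadjusted p under 0.05, 7 members were lower (4.12% of genes tested, 6.2% of ranked genes) and 4 higher (5.04% and 6.12%), shares near the background. DESeq2 called 1 member lower, and 0.237% of genes tested. The 2 libraries of IAA lay below both of NT in 34 members and above both in 22, against 24.9% and 21.7% of ranked genes. In introns, 37 of 78 members tested lay below 0 (median 0.03), against 51.7% of ranked genes. None was called in either direction (background 0.00733% lower and 0.0147% higher), and 3 were lower at an unadjusted p under 0.05 (background 2.68%).

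Cyp1a1, a cytochrome P450 that oxidises aromatic hydrocarbons, was the exception in CGR8. Its level was 13.7 and 13.5 TMM-scaled CPM in NT and 4.12 and 4.04 after IAA, a log2 fold change of -1.73 (SE 0.196, adjusted p = 0.0711, edgeR), and it was the member that DESeq2 called. A lower level with IAA was thus measured where no degron was present, and the part of that in its values in the other lines was not tested. In the time course, Cyp1a1 went from 39.2 and 43.1 CPM in control to 16.5 and 16.7 at 8 h. The 2 members next in order of p in CGR8 lay above 0. Ranbp6, of the importin family, was at 9.24 and 7.18 CPM in NT and 12.5 and 15.1 after IAA (log2 0.75, SE 0.211, adjusted p = 0.54, edgeR). Gm14403, a zinc finger gene, was at 2.38 and 4.69 CPM in NT and 7.24 and 7.6 after IAA (log2 1.06, SE 0.322, adjusted p = 0.54, edgeR). Neither passed the threshold. Of the 12 members with C2H2 fingers, 2 lay below 0 in CGR8 and their median was 0.31.

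After 1 h of IAA in sorted G1 cells the 100 genes lay close to control. The median log2 fold change was -0.06 in EG1, with 69 members below 0 against 39.6% of ranked genes, and -0.11 in LG1, with 83 below 0 against 41.9%. For these comparisons calls were made at an absolute log2 fold change over 0.25 and an unadjusted p under 0.05. In EG1 3 members were called lower (1.03% of genes tested, 0.287% of ranked genes) and none higher (0.19% and 0.0383%). In LG1 2 were called lower (0.733% and 0.354%) and none higher (0.285% and 0.134%). No member had an adjusted p under 0.05 in either sort, and the lowest in edgeR was 1.0. The IAA libraries lay below both controls in 23 members in EG1 (7.41% of ranked genes) and in 35 in LG1 (7.44%), and above both in 4 (7.84%) and 3 (6.81%).

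Alkbh3, a demethylase of alkylated DNA and RNA, was called in both sorts. In EG1 it lay at 15.1 and 12 TMM-scaled CPM in control and 9.24 and 7.43 after IAA (log2 -0.70, SE 0.226, adjusted p = 1.0, edgeR). In LG1 it lay at 15.9 and 11.0 in control and 8.64 and 8.71 after IAA (log2 -0.63, SE 0.226, adjusted p = 1.0, edgeR). The groups did not overlap in either sort. The call was lost without the first control library (log2 -0.52 in EG1 and -0.35 in LG1) or the second IAA library of either sort, and in LG1 also without the first IAA library. In CGR8, Alkbh3 was at 10.8 and 11.0 CPM in NT and 12.6 and 11.7 after IAA. It overlaps an antisense gene, Alkbh3os1, whose reads may enter its counts.

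Cyp1a1 was the other member called in both. Its control libraries differed widely, with 188 and 92.2 CPM in EG1 and 164 and 82.8 in LG1, against 81.1 and 63.5 and against 60.8 and 55.9 after IAA. The log2 fold changes were -0.95 (SE 0.388) and -1.08 (SE 0.39). Without the first control library they were -0.34 and -0.50, and the call was lost in both sorts then and without either IAA library. Cyp1a1 lay below control in CGR8 as well, as given above. Gm14443, a zinc finger gene, passed in EG1, with 15.4 and 12.8 CPM in control and 10.9 and 10.1 after IAA (log2 -0.42, SE 0.173). Of the 4 fits that left out a library, Gm14443 passed only in the 1 without the second control library (-0.54), and it had -0.27 without the first. It did not pass with DESeq2 (-0.39) or with no filter on low counts (-0.38). In LG1 Gm12258, at 6.6 and 4.73 CPM in control and 4.12 and 2.8 after IAA (log2 -0.71, SE 0.334), came next in order of p but did not pass. No member passed the test of the difference between the IAA effects of LG1 and EG1 (edgeR, adjusted p = 1.0 throughout). None did so at an unadjusted p under 0.05 (background 0.247% lower and 0.452% higher) or with DESeq2, and the median SE of the difference was 0.26. The smallest p went to Klhl20, a cullin adaptor (difference -0.31, SE 0.212), Tmem102 (-0.47, SE 0.357) and Tk2, the mitochondrial thymidine kinase (0.25, SE 0.207).

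In LG1 the intron column gave more calls. Of 92 members tested there, 73 lay below 0 against 41.2% of ranked genes, and the median was -0.40. In all, 19 were called lower (background 2.7%) against none called higher (background 1.24%). The IAA libraries were below both controls in 49 of the 92, against 15.5% of ranked genes. Alkbh3 introns lay at 44.7 and 50.1 TMM-scaled CPM in control and 26.3 and 27.5 after IAA (log2 -0.82, SE 0.188). Tmem167b introns lay at 4.94 and 4.62 in control and 2.13 and 2.04 after IAA (log2 -1.19, SE 0.236). Neither gene overlapped between the groups. Usp30, a mitochondrial deubiquitinase, was at 2.03 and 4.78 in control and at 0 in both IAA libraries. Ndufaf1, an assembly factor of respiratory complex I, was at 12.2 and 12.5 in control and 4.97 and 7.05 after IAA (log2 -1.05, SE 0.252). By p the next were Klhl20 (-0.84), Atxn1l (-0.82), Phospho2 (-1.31), Tk2 (-0.85), Bet1 (-0.78) and 5730455P16Rik (-1.33). None of the 19 passed after adjustment, the smallest adjusted p being 0.683 for Usp30 (edgeR). EG1 had 5 members called lower in introns (background 1.89%), none was called higher (background 0.39%), and its intron column held counts for 40.4 to 44.3% of single-exon genes, so that the 2 sorts cannot be compared in introns. The LG1 intron calls come from 1 fit that shared its scaling and its estimate of the spread with these EG1 columns. TMM factors were 0.8 to 0.8819 in EG1 introns and 1.0949 to 1.2547 in LG1 introns, and the part of this in the calls was not tested.

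**Figure D3:**
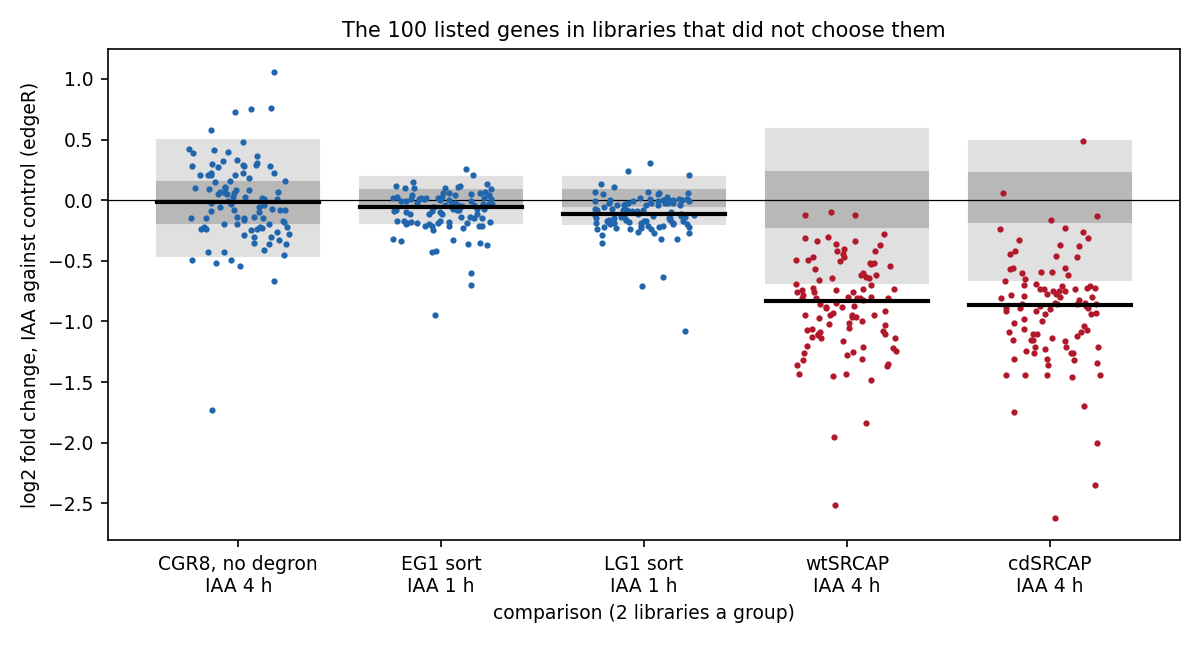
Log2 fold change of IAA against control (edgeR) for the 100 genes (points) in the 5 comparisons that did not choose them, with the members' median (black line) and, for ranked genes, the middle 50% (dark grey) and 90% (light grey). The medians are -0.01 in CGR8, -0.06 in EG1, -0.11 in LG1, -0.83 in wtSRCAP and -0.86 in cdSRCAP.

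In the wtSRCAP and cdSRCAP lines, which share no library with the time course, nearly all of the 100 genes lay lower after 4 h of IAA. In wtSRCAP the median log2 fold change was -0.83, all 100 members lay below 0 against 47.8% of ranked genes, and the range ran from -2.51 to -0.10. In cdSRCAP the median was -0.86, 98 members lay below 0 against 42.5%, and the range ran from -2.62 to 0.49. The medians over ranked genes were 0.02 and 0.06. IAA libraries lay below both NT libraries in 87 members in wtSRCAP, where the same held for 16.8% of ranked genes, and above both in none (17.0%). In cdSRCAP they lay below both in 89 members (18.8%) and above both in 1 (20.5%).

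No single member passed the adjusted threshold in either line in edgeR without a replicate block (background 0.00523% and 0.0% called lower). With the replicate number as a block, a pairing that the labels do not give, it called 43 lower in wtSRCAP (1.47% of genes tested). In cdSRCAP the blocked fit called 41 lower (1.28%). DESeq2 called 3 members lower in wtSRCAP, where it called 0.0366% of genes tested lower, and 7 in cdSRCAP, where it called 0.0994%. At an unadjusted p under 0.05, 62 members were lower in wtSRCAP (4.48% of genes tested, 4.62% of ranked genes) and none higher (2.93% and 3.65%). In cdSRCAP 65 were lower (3.99% and 4.65%) and none higher (1.65% and 1.98%). The count of 65 was 38 without the second IAA library of cdSRCAP and 40 without its second NT library. In both lines at once 52 members were lower at that p, and in 79 the IAA libraries of both lines were below their NT libraries, which held for 10.2% of ranked genes. Of the 3 members called in sorted G1 cells, Cyp1a1 and Alkbh3 overlapped between NT and IAA in wtSRCAP and Gm14443 did not. In cdSRCAP the IAA libraries lay below both NT libraries in all 3.

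In wtSRCAP Spata7 was the lowest, at 8.55 and 8.72 TMM-scaled CPM in NT and 1.17 and 1.76 after IAA (log2 -2.51, SE 0.36, adjusted p = 0.494, edgeR). In cdSRCAP it was at 8.13 and 6.81 in NT and 3.03 and 2.47 after IAA (log2 -1.44, SE 0.339, adjusted p = 0.721, edgeR). No IAA library reached the level of an NT library in either line. Usp30 was at 25.1 and 21.5 in wtSRCAP NT and 8.39 and 10.3 after IAA (log2 -1.31, SE 0.242), and at 23.2 and 21.9 and then 9.41 and 9.78 in cdSRCAP (log2 -1.23, SE 0.24). The 2 lines gave nearly the same values for it. Fam120b, a nuclear receptor coactivator, went from 19.4 and 20.1 to 6.24 and 8.29 in wtSRCAP (log2 -1.43, SE 0.265) and from 13.6 and 16.5 to 9.68 and 10.6 in cdSRCAP (log2 -0.57, SE 0.259).

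In cdSRCAP Tctn3, a tectonic of the ciliary transition zone, was the lowest, at 10.4 and 14.0 CPM in NT and 2.04 and 1.93 after IAA (log2 -2.62, SE 0.351, adjusted p = 0.289, edgeR). In wtSRCAP it was at 8.29 and 9.4 in NT and 2.44 and 3.79 after IAA (log2 -1.48, SE 0.339). Ccdc32 was at 7.91 and 4.92 in cdSRCAP NT and 1.05 and 1.44 after IAA (log2 -2.35, SE 0.398), and at 5.76 and 5.86 and then 2.24 and 2.5 in wtSRCAP (log2 -1.28, SE 0.383). Sumf1, the enzyme that activates sulfatases, was at 28.5 and 25.2 in cdSRCAP NT and 11.5 and 10.3 after IAA (log2 -1.31, SE 0.247), and at 30.4 and 25.7 and then 15.2 and 11.5 in wtSRCAP (log2 -1.08, SE 0.246). None of the 3 overlapped between NT and IAA in either line. The 2 members above 0 in cdSRCAP were Gm5141 (log2 0.06, SE 0.66) and Lpar5, a lysophosphatidic acid receptor (log2 0.49, SE 0.307), with 3.69 and 5.23 CPM in NT and 6.59 and 6.01 after IAA.

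The test of the difference between the IAA effects of the 2 lines called no member (edgeR and DESeq2), and edgeR called none of the 19111 genes tested. The median difference, cdSRCAP minus wtSRCAP, was -0.06, and it was within 0.5 in 83 of 100 members, with a median SE of 0.46 that leaves differences of that size unresolved for single genes. At an unadjusted p under 0.05, 3 members were lower (background 0.372%) and 1 higher (background 0.413%). The smallest p went to Mon1b, which acts in Rab7 activation (difference -0.75, SE 0.299, adjusted p = 1.0, edgeR), Tctn3 (-1.14, SE 0.476) and Fam120b (0.86, SE 0.368). Mon1b lay at 51.7 and 51.7 CPM in cdSRCAP NT and 22.5 and 25.6 after IAA, and at 40.0 and 36.8 and then 33.0 and 27.0 in wtSRCAP.

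Compared directly, the lines did not differ in any member at the adjusted threshold. In NT the median log2 difference of cdSRCAP from wtSRCAP was -0.02, with 1 member lower at an unadjusted p under 0.05 (background 1.32%) and none higher (background 2.5%). Lpar5 had the smallest p (3.69 and 5.23 against 8.09 and 9.49 CPM, log2 -0.97, SE 0.307, adjusted p = 1.0, edgeR), followed by Mon1b (0.43, SE 0.211) and Rnf113a2 (0.61, SE 0.322). After IAA the median was -0.08, with 3 members lower (background 2.19%) and 1 higher (background 2.84%) at that p. The smallest p was that of Txnl4b, a spliceosomal protein (2.41 and 3.23 against 5.37 and 6.14 CPM, log2 -1.03, SE 0.356, adjusted p = 0.951, edgeR). D17H6S53E (log2 -1.04, SE 0.426) and Spata7 (log2 0.87, SE 0.358) came next.

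**Figure D4:**
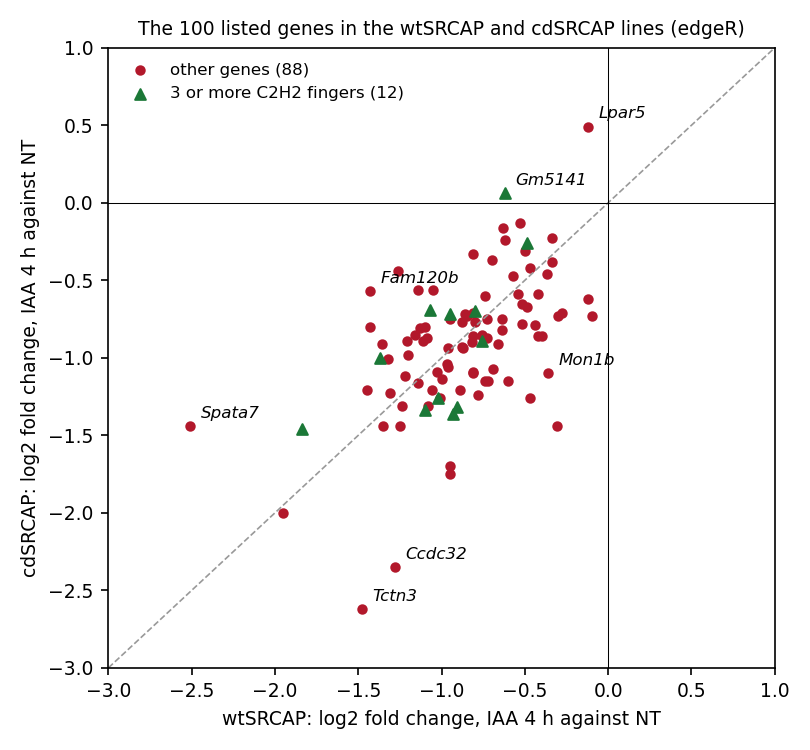
Log2 fold change of 4 h of IAA against NT (edgeR) in wtSRCAP (horizontal) and cdSRCAP (vertical) for each of the 100 genes, with triangles for the 12 genes with 3 or more C2H2 fingers and a dashed line of equal values. Of the 100 points, 98 lie below 0 on both axes, and Lpar5 and Gm5141 lie above 0 in cdSRCAP.

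Introns of these lines, whose columns were nearly free of counts at single-exon genes, gave the same direction in most members. Of 74 members tested, 67 lay below 0 in wtSRCAP (median -0.74) and 69 in cdSRCAP (median -0.76), against 46.7% and 49.0% of ranked genes. The range ran from -2.84 to 1.89 in wtSRCAP and from -2.64 to 0.28 in cdSRCAP. The highest was 1810043G02Rik in wtSRCAP, at 4.49 and 3.06 TMM-scaled intron CPM in NT and 19.6 and 9.06 after IAA. In each line 1 member was called lower (background 0.236% in wtSRCAP and 0.213% in cdSRCAP) and none higher (background 0.063% and 0.0236%). The one in wtSRCAP was D130040H23Rik, a gene with 11 C2H2 fingers, at 110 and 129 TMM-scaled intron CPM in NT and 36.1 and 42.2 after IAA (log2 -1.60, SE 0.19, adjusted p = 0.0275, edgeR). In cdSRCAP the same introns were at 123 and 123 and then 62.3 and 51.6 (log2 -1.11, SE 0.182, adjusted p = 0.0511, edgeR). Disp1, which releases lipid-modified Hedgehog, passed in cdSRCAP with 225 and 231 in NT and 113 and 108 after IAA (log2 -1.05, SE 0.147, adjusted p = 0.0382, edgeR). In wtSRCAP its introns were at 170 and 185 in NT and 147 and 126 after IAA (log2 -0.38, SE 0.148). Spata7 introns were at 39.6 and 28.7 in cdSRCAP NT and 8.82 and 4.57 after IAA (log2 -2.36, SE 0.38, adjusted p = 0.0501, edgeR). In wtSRCAP they were at 34.3 and 25.8 in NT and 11.2 and 11.0 after IAA (log2 -1.44, SE 0.376). The difference of effects for Spata7, cdSRCAP minus wtSRCAP, was -0.92 (SE 0.527) in introns and 1.08 (SE 0.484) in exons, so its sign differed.

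**Figure D5:**
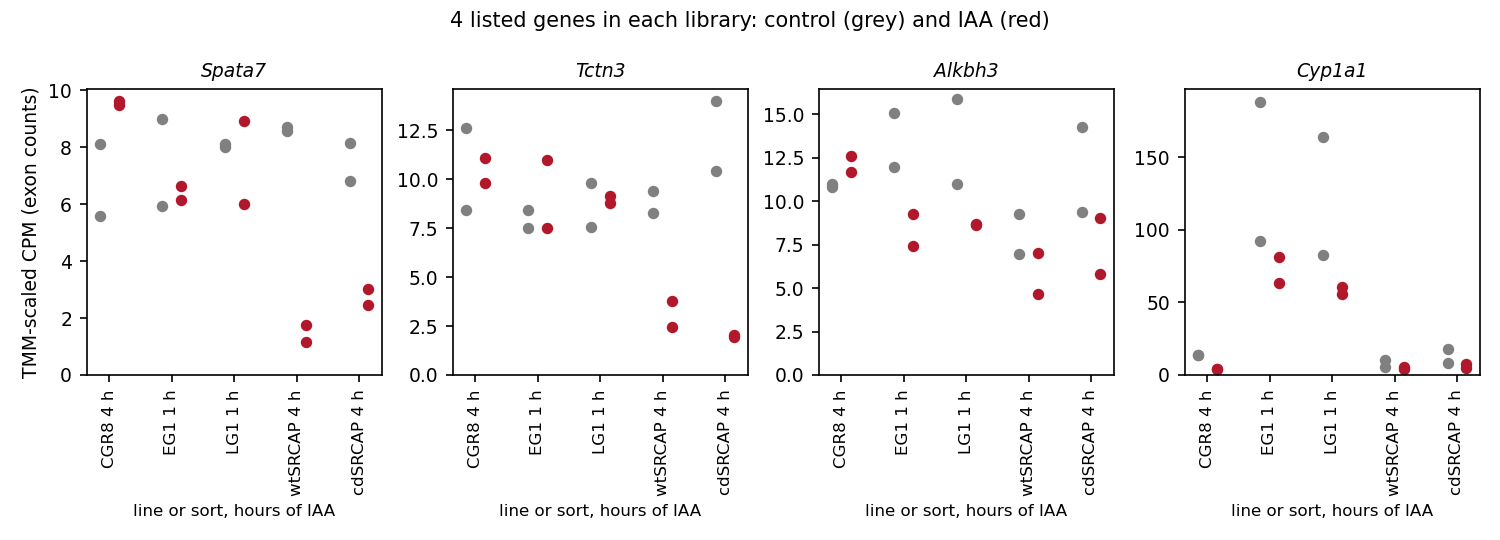
TMM-scaled CPM of exon counts in every library of the 5 other comparisons for Spata7, Tctn3, Alkbh3 and Cyp1a1, control in grey and IAA in red. Spata7 and Tctn3 lie at 1.17 to 3.79 CPM after IAA in wtSRCAP and cdSRCAP, and Cyp1a1 lies at 4.12 and 4.04 CPM after IAA in CGR8.

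By function, the 12 C2H2 genes had time-course medians of -0.82, -0.92, -1.27 and -0.90. In wtSRCAP all 12 lay below 0 with a median of -0.94 and 9 were lower at an unadjusted p under 0.05, and in cdSRCAP 11 lay below 0 with a median of -0.94 and 7 were lower. Of all 100 members, 62 were lower at that p in wtSRCAP and 65 in cdSRCAP, against 4.48% and 3.99% of genes tested. D130040H23Rik (log2 -1.84, SE 0.372) and 2810021J22Rik (-1.37, SE 0.282) were the furthest below 0 in wtSRCAP. In the sorted cells 12 lay below 0 in EG1 (median -0.18) and 11 in LG1 (median -0.15). The medians of all 168 ranked genes with such fingers were -0.03 at 2 h, -0.02 at 4 h, -0.29 at 6 h and -0.03 at 8 h.

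A cilium and centrosome list of 64 ranked genes, which does not hold Spata7 or Lca5, gave Tctn3, Kif3b, Cluap1 and Wdr19 (4 of the 100 members, and 0.612% of ranked genes). Kif3b is a motor subunit of kinesin-2, and Cluap1 and Wdr19 belong to the intraflagellar transport particles that it carries. Their median was -1.06 in wtSRCAP, with 4 of 4 lower at an unadjusted p under 0.05, and -0.97 in cdSRCAP, with 3 of 4. Of all 100 members, 62 and 65 were lower at that p in the 2 lines. Wdr19 went from 9.26 and 9.76 CPM to 2.54 and 5.75 in wtSRCAP (log2 -1.16, SE 0.389). Kif3b went from 39.9 and 37.0 to 24.9 and 18.9 in wtSRCAP (log2 -0.82, SE 0.228) and from 38.3 and 34.1 to 20.5 and 18.4 in cdSRCAP (log2 -0.90, SE 0.228). Cluap1 had log2 fold changes of -0.97 (SE 0.311) and -1.04 (SE 0.31). In these 3 genes no IAA library overlapped NT in either line. The whole list had time-course medians of -0.18, -0.28, -0.52 and -0.37.

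Zinc finger genes outside the Zfp prefix gave Zscan20, Zbtb8b, Zik1 and Zbtb49 out of 60 ranked genes, with log2 fold changes in cdSRCAP of -1.32 (SE 0.256), -1.70 (SE 0.41), -0.69 (SE 0.379) and -1.34 (SE 0.401) in that order. In wtSRCAP the 4 values were -0.91, -0.95, -1.07 and -1.10. The ubiquitin system gave 6 of 246 ranked genes: the adaptors Klhl28, Asb7 and Klhl20, the deubiquitinase Usp30, and the ligase genes Rnf113a2 and Trim21. In cdSRCAP all 6 were lower at an unadjusted p under 0.05 (median -1.15) and in wtSRCAP 5 were (median -0.96), with Rnf113a2 at -0.10 (SE 0.325). Of all 100 members, 65 were lower at that p in cdSRCAP and 62 in wtSRCAP. Asb7 went from 18.5 and 19.3 CPM to 11.6 and 8.96 in wtSRCAP and from 19.9 and 21.1 to 6.96 and 10.8 in cdSRCAP.

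Vesicle traffic gave Atp6v0e2, a subunit of the vacuolar proton pump, Vps9d1 and Hps4 of the BLOC-3 complex, out of 274 ranked genes. Their log2 fold changes were -1.24 (SE 0.4), -1.0 (SE 0.386) and -0.37 (SE 0.283) in wtSRCAP and -1.31, -1.14 and -0.46 in cdSRCAP. The mitochondrial list of 242 ranked genes gave Slc25a44, a carrier of branched-chain amino acids (-0.74 and -0.60 in the 2 lines), and Ndufaf1 (-0.53 and -0.13). The peroxisome list of 17 gave Pex11a, which acts in peroxisome division (-0.86, SE 0.365, and -0.72, SE 0.361). DNA repair (124 ranked genes) gave Poll, the DNA polymerase lambda (-0.81, SE 0.311, and -1.10, SE 0.312), and RNA and tRNA modification (88) gave Alkbh3 (-0.49, SE 0.374, and -0.67, SE 0.367). No kinase of the MAP kinase cascades was a member among 41 ranked. Among the lists of this kind with a member, members made up between 0.806% (DNA repair) and 6.67% (zinc finger genes) of the ranked genes of the list, against 100 of 10453 overall.

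A coding gene on the other strand starts within 1 kb of the start of 21 members (21.0% against 11.6% of ranked genes). None of these partners is itself a member. The 13 partners at or above 5 CPM in control had medians of -0.18, -0.23, -0.36 and -0.29, and 9 of the 13 were below 0 at all times against 39.7% of ranked genes. Lyar, which starts 13 bp from Zbtb49, had log2 ratios of -0.02, -0.03, 0.0 and 0.01, while Zbtb49 had -1.19, -0.93, -0.81 and -0.86. Lins1, 293 bp from Asb7, had -0.47, -0.73, -0.81 and -0.41, next to -0.81, -1.0, -0.75 and -0.73 for Asb7. The members had a median of 7 exons against 10 in ranked genes and a median gene length of 15458 bp against 23127 bp. The 46 members that another annotated gene overlaps, on either strand, had a median of -0.81 in wtSRCAP and -0.86 in cdSRCAP, next to -0.86 and -0.89 for the 54 that none overlaps.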

How the data were processed

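The authors aligned paired-end reads of stranded nuclear RNA libraries to mm10 with STAR and deposited counts per gene over GENCODE vM25 exons and introns, made with featureCounts. The strand setting is not given in the sources used here. The deposited DESeq2 tables hold the authors' fold changes and p-values and were not used, and 0 columns of other samples were present. Exon and intron columns were fitted per table with the edgeR (4.0.16) quasi-likelihood test, TMM scaling and filterByExpr (minimum count 10, minimum total 15), over all genes, with Benjamini-Hochberg adjustment and R 4.3.3. Levels are CPM on column sums in the time course and on TMM library sizes elsewhere. Calls needed an absolute log2 fold change over 0.5 with an adjusted p under 0.05, or over 0.25 with an unadjusted p under 0.05 in sorted cells, and an adjusted p under 0.05 for differences between effects. DESeq2 (1.42.0), no filter, a replicate block, intron columns and leaving out each library were alternatives. The fit was tested on simulated data. P-values set differences against the spread between duplicates, estimated over all libraries of a table.

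Members and gene lists were chosen with earlier results of these data known. Named genes are the 12 first members, those beside the limit of the list, those called and the 3 smallest p-values of each comparison. From each of the 9 gene lists at most 4 members are named, except for the ubiquitin system, where all 6 are. Genes with other reasons for being named (Rnf113a2, Gm5141, Lpar5, Alkbh3 in CGR8, Lyar and Lins1) were picked after their values were seen. Positions, exons and overlaps come from GENCODE vM21 (GRCm38). Of 55401 identifiers, 54349 matched the annotation with version and 55141 without.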

Additional observations from a re-analysis of the deposited data

How the results depend on the processing

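Of the 100 genes, 60 stayed in the list with a control floor of 1 CPM, 66 with a floor of 10 CPM, 57 with no symbol dropped and 36 with intron columns, and 55 to 95 stayed when 1 library was left out, with 55 without the second control library. In CGR8, DESeq2, no filter and the replicate block each called 1 member lower (0.889% of genes tested with the block) where edgeR called 0, and leaving out 1 library gave 0 to 3, with 3 without the second NT library and 1 without the first NT or the first IAA library. At an unadjusted p under 0.05, a rule added after seeing the data, introns gave 3 members in CGR8 and leaving out 1 library gave 1 to 12, against 7. Introns gave 5 called members in EG1 and 19 in LG1, against 3 and 2, and an adjusted threshold gave 0 in both. Leaving out 1 library gave 0 to 5 in EG1 and 0 to 4 in LG1, also at the unadjusted p. In wtSRCAP and cdSRCAP, DESeq2 called 3 and 7 members, no filter 1 and 2, and introns 1 and 1, against 0, and leaving out 1 library gave 0 to 0. At the unadjusted p, introns gave 25 and 32 members, with 74 tested, and leaving out 1 library gave 43 to 53 and 38 to 55, against 62 and 65. The medians ran over all settings from -0.90 to -0.78 in wtSRCAP and -0.95 to -0.84 in cdSRCAP. The cause of these differences was not tested. Of the counts, 100 stayed within 1.5 times the main value and 53 moved further. Of the values of single named members, 12 changed sign, none of them called. With intron columns these were Cyp1a1 (0.41) and Gm14403 (-0.04) in CGR8, Mavs (0.15) and Gm5141 (-0.78) in cdSRCAP, Txnl4b (1.58) and Spata7 (-0.74) between the lines after IAA, and Tk2 (-0.50) between the sorts. Leaving out 1 library gave Lpar5 -0.23 to 0.01 and Rnf113a2 -0.36 to 0.22 in wtSRCAP (above 0 without the second NT library, and Rnf113a2 at 0.01 without the first IAA library), and Gm5141 -0.74 to 1.23 in cdSRCAP (-0.74 without the second IAA and -0.51 without the first NT library).

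With the replicate number as a block, 9 members were called lower in EG1 (4.53% of genes tested), 7 in LG1 (2.59%), 43 in wtSRCAP (1.47%) and 41 in cdSRCAP (1.28%). At the unadjusted p it gave 14 in CGR8 (7.79%), 11 in EG1 (5.23%) and 16 in LG1 (3.4%). Deviations of same-numbered libraries correlated between groups at 0.34 in CGR8, 0.76 to 0.87 in the sorted cells and 0.61 to 0.72 in the wtSRCAP and cdSRCAP lines, and at 0.01 to 0.75 in the time course. With 2 numbers and no shared day in the labels, the pairing is not given by the design.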
